A study of Mus musculus with 8 samples.

Results

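Integrins and laminins were followed as a receptor and ligand pair of gene families in mouse embryonic stem cells before and after differentiation. They comprised 37 protein-coding genes of the 32780 genes measured: 18 integrin α chains, 8 integrin β chains and 11 laminin chains, of which 5 were α, 3 β and 3 γ. Members were chosen by gene symbol in the GENCODE M21 annotation (the Itga, Itgb and Lama, Lamb and Lamc series), a rule that uses symbols only. RNA came from TC1, a mouse embryonic stem cell line labelled wild-type, in 4 libraries at day 0 (undifferentiated) and 4 libraries at day 10 of a differentiation protocol. The labels name neither the medium, the factors nor the lineage of that protocol. Both groups were dissociated to a suspension of separate cells before total RNA was extracted, and ribosomal RNA was depleted. All libraries stem from 1 cell line. Whether replicate libraries were grown as independent cultures is not stated, so the p-values reflect only variation among these samples, and that variation may be technical.

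Integrins are cell surface receptors made of an α and a β chain, and the pairing decides which matrix protein is bound. Laminins are cross-shaped trimers of an α, a β and a γ chain that form the sheet on which a basement membrane is built. The trimer of Lama1, Lamb1 and Lamc1 is the laminin of the early embryo, and α6β1 integrin (Itga6, Itgb1) is the receptor through which stem cells bind laminin.

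The libraries held 11242568 to 17843651 estimated counts. Stem cell markers (Pou5f1, Nanog, Sox2, Esrrb, Zfp42) summed to 1601 to 1893 CPM (counts scaled to library size by TMM) at day 0 and to 18.6 to 55.3 CPM at day 10, and all 5 fell. At day 10 the libraries also held RNA of several differentiated cell types: fibroblast markers summed to 5146 to 9339 CPM, visceral endoderm markers to 1116 to 3701, cardiomyocyte markers to 757 to 1315, endothelial markers to 426 to 522 and leukocyte markers to 69.0 to 133. Within day 10, library 2 had the highest visceral endoderm sum and the lowest fibroblast and leukocyte sums. In such bulk RNA, fewer cells of a type and less RNA per cell cannot be told apart.

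Most integrin genes and a smaller share of laminin genes were higher at day 10. Of the 37 genes, 34 passed the filter on low counts and were tested. Of these, 26 rose and 6 fell (edgeR quasi-likelihood test, Benjamini-Hochberg adjusted p under 0.05), with a median log2 change of 1.93, the same with Lamc3 (0 counts at day 0) set at its bound. Among all 15097 genes tested, 82.1% were called in either direction, 42.7% higher and 39.4% lower, and the median log2 change was 0.06. A call is therefore the common outcome here, and the direction and size of each change carry more than the call. Of the 23 integrin genes tested, 20 rose, Itga6 and Itgb7 fell and Itgb4 passed no threshold. Of the 11 laminin genes, 6 rose, and Lama1, Lama3, Lamb1 and Lamc1 fell. The members not tested were Itgad, Itgae and Itgax.

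**Figure D1:**
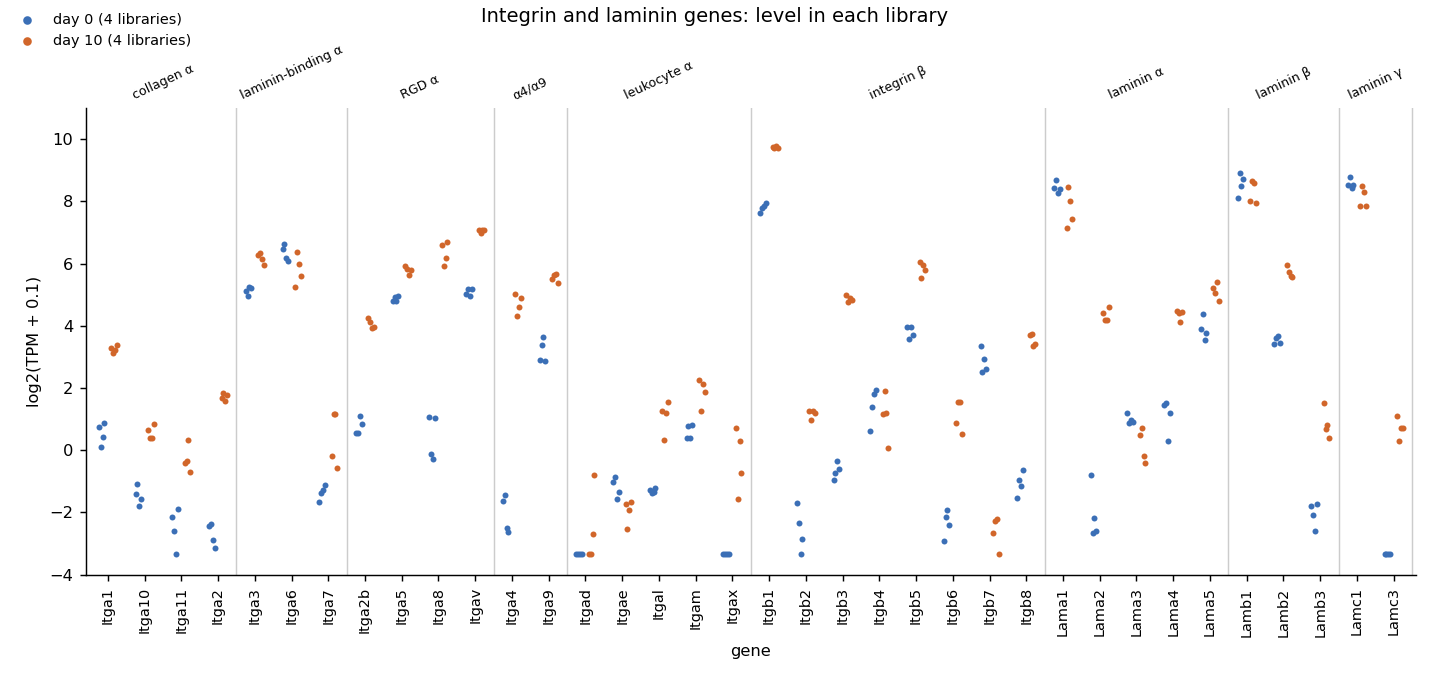
Level of 36 genes in each library as log2(TPM + 0.1), where TPM is the length-scaled transcript level; each point is 1 library and genes are grouped by role. Itgb1 lies highest at day 10, between 835 and 872 TPM, while Lama1, Lamb1 and Lamc1 have points of both days at the same height.

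The level of a gene depends in part on the scale. TPM divides by transcript length, and on TPM the median log2 change of all genes was 0.40, with 65.8% of called genes higher against 52% on counts. Log2 changes followed transcript length across genes, and a fit with that trend removed was added after the data were seen. It turned the direction of Itga5 and Lama5 and ended the call of Itgam, as given beside each of them, and gave the members a median of 1.49. Of 33 tested genes, 19 had their fold moved by more than 1.5 times in that fit, 18 of them downward and Itga2b upward. On TPM, 27 of the 37 genes had every day 10 library above every day 0 library, 3 had the reverse and 7 overlapped. Among all genes tested, 49% were separated upward on TPM and 24.6% downward. The member counts, unlike these shares, include the untested Itgax (separated upward), Itgae (downward) and Itgad (overlapping).

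The laminin-binding α chains went in different directions. Itga6, the α chain that stem cells pair with Itgb1 to bind laminin, was at 177, 193, 147 and 138 CPM in the day 0 libraries and at 57.0, 116, 96.7 and 78.0 CPM at day 10. All day 0 libraries lay above all day 10 libraries on this scale. Itga6 fell by 0.91 ± 0.22 on the log2 scale (SE; adjusted p = 0.0045). On TPM the days overlapped, since day 10 library 2 (82.1 TPM) lay above day 0 libraries 3 and 4 (71.7 and 67.7 TPM), and the log2 change there was -0.52 (adjusted p = 0.0364), or -0.92 relative to the TPM median of all genes. Itga3, the other broadly expressed laminin receptor, rose from 57.9 to 66.3 CPM at day 0 to 94.3 to 109 CPM at day 10 (log2 change 0.72 ± 0.07, adjusted p = 3.05e-07). Itga7, the laminin receptor typical of muscle, rose by 1.99 ± 0.47 on the log2 scale from a low level. At day 10 it stood at 1.47, 3.83, 4.02 and 1.07 CPM, so libraries 2 and 3 were high and libraries 1 and 4 low. Cardiomyocyte markers, of which all 6 tested of 7 rose, had another order, at 889, 915, 757 and 1315 CPM. The 6 skeletal muscle markers summed to 1.29 to 2.75 CPM at day 0 and 1.99 to 3.64 CPM at day 10. Of the 2 tested, Tnni2 rose, from 2 to 99 counts, and Acta1 was not called, while at day 10 Myod1 had 0 counts, Myog and Myf5 2 each and Ckm 5. The part of either cell type in the Itga7 result was not tested.

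The Itga6 message also changed form between the days. The gene has alternative last coding segments, known as the A and B cytoplasmic tails: a transcript that holds one extra exon near the end carries the A tail, and one that skips it carries the B tail. In GENCODE M21 that exon lies at chr2:71853534-71853663 (GRCm38, plus strand, 130 nucleotides) and its coding part ends the reading frame of Itga6-201. Itga6-202 skips it and reads on into the next exon, at chr2:71855854-71856012. The coding ends, which distinguish the 2 forms, read 5′ to 3′ as follows, with the first 18 bases in capitals.
Itga6-201 own coding end: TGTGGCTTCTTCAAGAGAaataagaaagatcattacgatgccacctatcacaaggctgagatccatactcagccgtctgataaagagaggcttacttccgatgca
Itga6-202 own coding end: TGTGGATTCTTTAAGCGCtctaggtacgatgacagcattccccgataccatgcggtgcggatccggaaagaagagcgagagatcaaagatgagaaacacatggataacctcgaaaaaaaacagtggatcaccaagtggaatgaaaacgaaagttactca
Of those 18 positions, 14 hold the same base in both. The capitals cover the membrane-proximal part of the tail, which is conserved among integrin α chains, and the rest of the ends differ in sequence and in length (105 against 159 nucleotides).

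Transcripts with the exon (Itga6-201 and Itga6-207) had 9.50, 11.1, 6.04 and 5.46 TPM at day 0 and 17.5, 35.4, 29.6 and 23.9 TPM at day 10. Transcripts that skip it (Itga6-202 and Itga6-203) had 70.1, 77.2, 60.3 and 56.3 TPM at day 0 and 15.4, 38.1, 27.8 and 22.3 TPM at day 10. Neither sum overlapped between the days. The share with the exon was 10.6% ± 1.90 (SD, n = 4) at day 0 and 51.2% ± 2.09 (SD, n = 4) at day 10 (two-sided exact permutation test, p = 0.0286, the smallest that 4 against 4 libraries can give). This comparison was added after the transcript values were seen. The other 4 of the 8 Itga6 transcripts neither hold nor skip the exon.

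Among protein-coding transcripts alone the change looked larger, and it depends on which transcripts are counted. Itga6-201 made up 13.2% ± 2.84 of the coding TPM of the gene at day 0 and 90.3% ± 4.57 at day 10 (SD, n = 4 each). Itga6-202 made up 79.6% ± 1.19 at day 0, while at day 10 it was listed at 0 TPM in libraries 2, 3 and 4 and at 0.000233 TPM in library 1. The skipping transcript left at day 10 was Itga6-203, annotated as non-coding with 3 exons, at 15.4 to 38.1 TPM. Itga6-203 shares the skipping join with Itga6-202 but is not among the coding transcripts. Reads across the exon junctions were not analysed here.

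**Figure D2:**
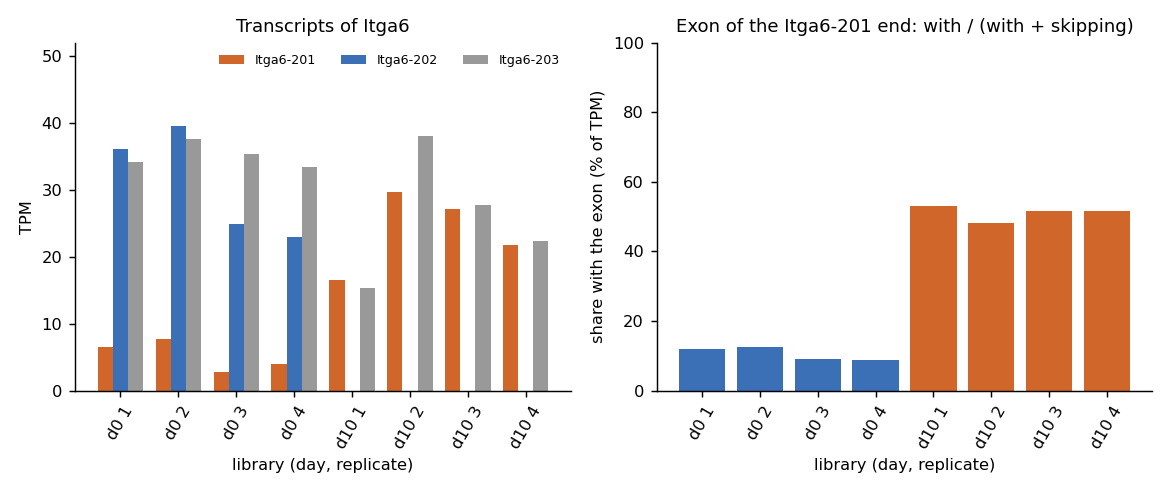
Left, TPM of 3 Itga6 transcripts in each library; right, share of TPM with the exon of the Itga6-201 end among transcripts that hold or skip it, in percent. Day 0 bars on the right lie between 8.85 and 12.5%, day 10 bars between 48.2 and 53.2%, and Itga6-203 stays visible at day 10 on the left where Itga6-202 does not.

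No transcript share, that of the Itga6 pair included, passed the threshold after adjustment. Of the 14 members at 1 TPM or more in every library, 8 genes had transcripts to compare. These were 18 protein-coding transcripts with at least 10% of the gene's TPM on either day and not over 90% on both. The smallest exact permutation p of 0.0286, which 7 transcripts had, became 0.0735 after adjustment. Among them were the Itga6 pair, Itga9-201 and Itga9-202, and Itgb1-201 and Itgb1-204. The full-length Itgb1-201 had 93.3% ± 8.35 of the coding TPM of Itgb1 at day 0 and 70.2% ± 7.53 at day 10 (SD, n = 4 each), with the 711-nucleotide Itgb1-204 holding the rest. The size of that shift depends on the length scaling, since Itgb1-201 is 3815 nucleotides long. In estimated counts summed over the libraries of a day, Itgb1-201 held 22538 at day 0 and 57857 at day 10. Itgb1-204 held 284.47 and 3625.5, so on counts Itgb1-201 made up by far the larger part on both days.

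All 4 collagen-receptor α chains rose. Itga1, which with Itgb1 binds basement membrane collagen, had 4.70, 5.43, 5.22 and 6.55 CPM at day 0 and 39.7, 31.9, 34.3 and 36.7 CPM at day 10. Its log2 change was 2.69 ± 0.13 (adjusted p = 1.02e-10), and 1.74 without the length trend. The days lay far apart in every library. Itga2, the collagen receptor of platelets and epithelia, rose 42.0-fold (log2 5.39, or 4.45 without the length trend), from a summed 13 counts in the day 0 libraries to 666 at day 10. Itga10 and Itga11, the collagen receptors of cartilage and of fibroblast-type cells, rose by 1.94 ± 0.28 and 2.91 ± 0.53 on the log2 scale (1.17 and 2.26 without the length trend) and stayed at or under 1.69 TPM. Itga11 was at 2.48 CPM in day 10 library 3 and at 1.23 to 1.55 CPM in the other day 10 libraries.

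The 4 α chains that recognise the RGD motif of fibronectin, vitronectin and related proteins rose as well, by very different amounts. Itgav, the partner of several β chains and activator of latent TGF-β, was at 125, 146, 130 and 145 CPM at day 0 and at 373, 329, 381 and 370 CPM at day 10. Its log2 change was 1.41 ± 0.07 (adjusted p = 2.3e-10), and 0.54 without the length trend. Itga8, a receptor for nephronectin known from kidney and smooth muscle, was at 1.84, 1.39, 0.842 and 2.10 CPM at day 0 and at 99.6, 63.7, 90.8 and 98.2 CPM at day 10. The log2 change of Itga8 was 5.81 ± 0.22 (adjusted p = 4.86e-10), with library 2 the lowest at day 10. Library 2 was also the lowest day 10 library for the sums of the smooth muscle markers (749, 433, 648 and 566 CPM in libraries 1 to 4), of the epicardial and mesothelial markers (270, 159, 206 and 219 CPM) and of the fibroblast markers. At day 0 the smooth muscle sum was 13.8 to 22.8 CPM and the epicardial sum 11.4 to 13.4 CPM. Of 5 smooth muscle markers 4 rose and 1 was not called, all 5 epicardial markers rose, and none of either list was at 0 counts at day 0. The part of these cells in the Itga8 result was not tested. Only 30.6% of the day 10 TPM of Itga8 lay on protein-coding transcripts. Itga5, the fibronectin receptor, rose by 0.42 ± 0.07 on the log2 scale (adjusted p = 5.67e-05), from 72.0 to 82.4 CPM at day 0 to 97.3 to 112 CPM at day 10. Once the length trend was taken out it was lower, at -0.21 (adjusted p = 0.0146), so the direction of Itga5 depends on the scaling.

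Itga2b, the platelet fibrinogen receptor, rose 13.1-fold (log2 3.71, or 4.42 without the length trend), from 0.369 to 1.11 CPM to 7.89 to 11.5 CPM. Of its day 10 TPM, 22.9% lay on protein-coding transcripts. Of the 8 megakaryocyte and platelet markers, 4 were tested and all 4 rose. The 8 markers summed to 1.44 to 1.68 CPM at day 0 and 20.2 to 26.2 CPM at day 10. Vwf alone made up 1.31 to 1.60 CPM of that sum at day 0 and 9.5 to 15.7 CPM at day 10. Pf4, Ppbp, Gp9, Gp1bb and Gp6 had 0 counts at day 0. The part of these cells in the Itga2b result was not tested.

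The α4 and α9 chains, which bind fibronectin, VCAM and tenascin, both rose, and Itga4 made the largest log2 change of the integrins tested on counts (on log2(TPM + 1), the scale of the TPM fits given here, that was Itga8). Itga4 was at 0.737, 0.418, 0.253 and 0.393 CPM at day 0 and at 88.7, 65.5, 72.5 and 89.7 CPM at day 10. No day 10 library came near the day 0 range, and the change was 176-fold (log2 7.46 ± 0.20, adjusted p = 6.39e-13; log2 6.62 without the length trend). Its coding transcripts held 55.7% of the gene's day 10 TPM. Itga9 rose by 1.85 ± 0.09 on the log2 scale, from 17.5 to 22.5 CPM to 67.8 to 79.1 CPM.

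Leukocyte α chains were low and mostly higher at day 10. Itgal, the α chain of LFA, rose by 2.51 ± 0.31 on the log2 scale (adjusted p = 3.16e-06; 1.81 without the length trend), to 5.0, 2.65, 4.89 and 6.22 CPM in the 4 day 10 libraries. Itgam, the macrophage and neutrophil α chain, was at 10.5, 4.88, 9.50 and 7.90 CPM at day 10 and at 3.32 to 5.04 CPM at day 0, so library 2 fell inside the day 0 range. Its log2 change was 0.95 ± 0.24 (adjusted p = 0.00189), and the call ended with the length trend removed (log2 change 0.22, adjusted p = 0.41). Itgax, the dendritic cell chain, had 0 counts at day 0 and 58 over the day 10 libraries. Setting the day 0 group to 3 counts makes it at least 16.5-fold higher, and it was not tested. Itgae went from 43 to 18 counts and Itgad from 0 to 2 counts over 4 libraries each, both untested. Leukocyte markers, of which 7 of 9 rose and 2 were not called, summed to 26.7 to 32.9 CPM at day 0 and to 133, 69.0, 108 and 127 CPM in day 10 libraries 1 to 4, with Cd53 and Tyrobp at 0 counts at day 0. Library 2 was thus the lowest day 10 library for these markers and for Itgal, Itgam and Itgax. The part of leukocytes in these values was not tested.

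Of the 8 β chains, 6 rose, 1 fell and 1 was not called. Itgb1, the shared partner of most matrix-binding α chains, was at 431, 421, 451 and 474 CPM at day 0 and at 1077, 914, 1079 and 1048 CPM at day 10. It rose 2.32-fold (log2 1.21 ± 0.07, adjusted p = 9.2e-10), and its lowest day 10 library lay well above its highest day 0 library. Itgb3, which pairs with Itgav and Itga2b, was at 1.47, 1.74, 2.61 and 1.70 CPM at day 0 and at 86, 71.1, 81.8 and 79.1 CPM at day 10 (log2 change 5.40 ± 0.14, adjusted p = 3.22e-13; 4.56 without the length trend). The other partners of Itgav also rose: Itgb5 by 1.79 ± 0.10, Itgb6 by 4.17 ± 0.45 and Itgb8 by 4.40 ± 0.19 on the log2 scale (Itgb8 by 3.57 without the length trend). Itgb6, an epithelial chain, stayed at or under 2.81 TPM. Itgb2, the β chain of leukocytes, went from a summed 7 to 174 counts (log2 change 4.31 ± 0.49) and was at 2.47 to 3.08 CPM at day 10, where library 2 was again the lowest. Day 0 library 1 held 4 of those 7 counts, and without it the log2 change was 5.13.

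Itgb7 had the largest fall of the integrins and laminins tested. This β chain, known as the lymphocyte gut-homing partner of Itga4 and Itgae, was at 7.56, 6.89, 7.58 and 6.61 CPM at day 0. At day 10 it was at 0.0736, 0.124, 0.146 and 0 CPM, which is 5 counts in all. Its log2 change was -6.30 ± 0.38 (adjusted p = 1.69e-09). Itgb4, the β chain of hemidesmosomes that pairs with Itga6 alone, stood at 4.70 to 5.71 CPM at day 0 and at 3.53, 8.58, 5.26 and 2.13 CPM at day 10. The days overlapped, and its log2 change of -0.11 ± 0.34 had an adjusted p of 0.776.

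**Figure D3:**
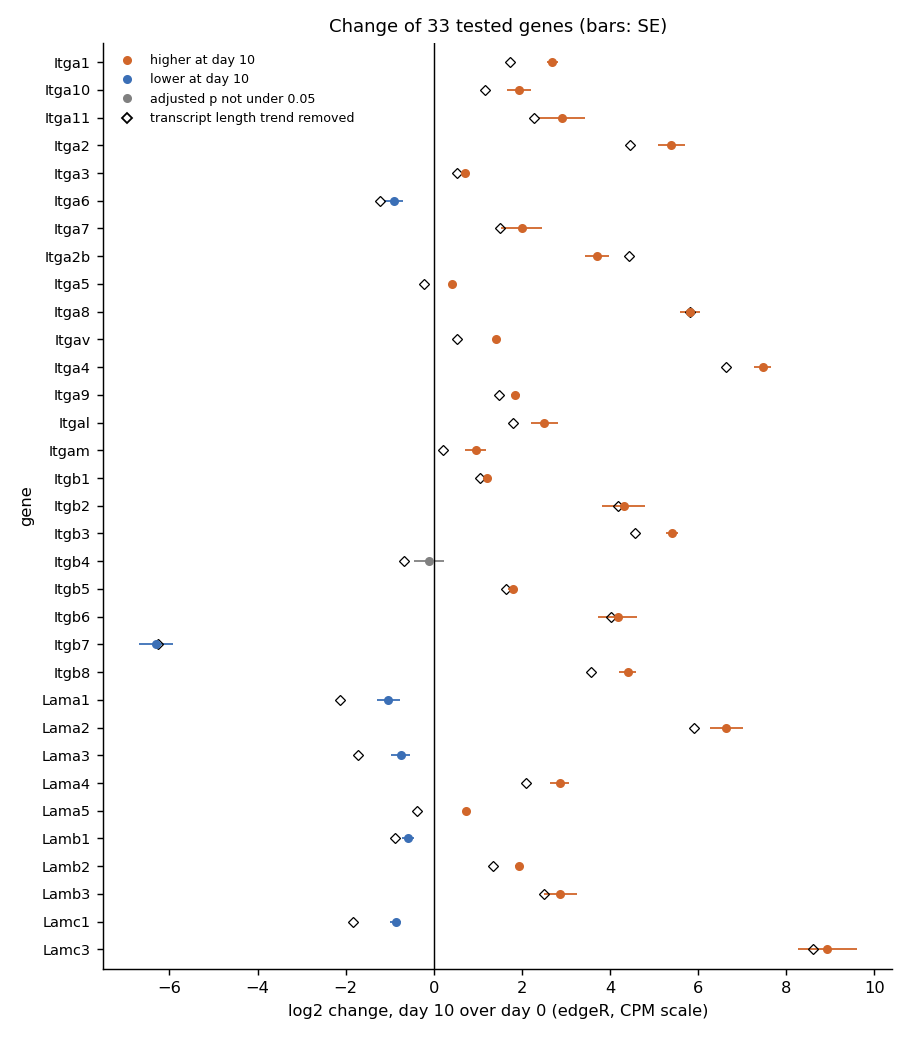
Log2 change of 33 tested genes between day 0 and day 10, on counts, with SE bars; open diamonds show the same change with the transcript length trend removed. Itga5 and Lama5 are the called genes whose diamond lies on the other side of 0, and Itgb7 is far to the left of the other genes that fell. The value drawn for Lamc3, at 0 counts at day 0, depends on the fit's prior count.

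The 3 chains of the early embryonic laminin were all lower at day 10 on counts, and by modest amounts. Lama1 was at 2060, 2424, 1960 and 2146 CPM at day 0 and at 654, 1560, 1186 and 803 CPM at day 10. It fell by 1.03 ± 0.27 on the log2 scale (adjusted p = 0.00812), and by 2.14 without the length trend. Lamc1, the γ chain of most laminins, was at 1683, 1974, 1709 and 1805 CPM at day 0 and at 815, 1223, 1083 and 822 CPM at day 10 (log2 change -0.86 ± 0.13, adjusted p = 6.78e-05), or -1.84 with the trend removed. Every day 10 library lay under every day 0 library for both. Lamb1 was at 665, 841, 622 and 838 CPM at day 0 and at 411, 555, 570 and 441 CPM at day 10 (log2 change -0.59 ± 0.13, adjusted p = 0.00193). On TPM the days overlapped for all 3 genes, and the call of Lamb1 ended there (log2 change -0.27, adjusted p = 0.226), while Lama1 and Lamc1 were at -0.68 and -0.43 with adjusted p of 0.0203 and 0.016. Relative to the TPM median of all genes, Lama1 was at -1.07, Lamc1 at -0.83 and Lamb1 at -0.66.

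The spread of these genes at day 10 had an order of libraries in common with the summed visceral endoderm markers and with some epithelial markers. On CPM, Lama1, Lamc1 and Itga6 were highest in library 2, then 3, 4 and 1, and Lamb1 was highest in libraries 3 and 2. Markers of visceral endoderm, an extraembryonic layer known to make this laminin, summed to 441 to 480 CPM at day 0 and to 1116, 3701, 2560 and 2124 CPM in day 10 libraries 1 to 4. Of these 6 markers, Afp, Ttr, Apoa1 and Apob rose, Amn and Cubn were not called, and none was at 0 counts at day 0. Cubn, at 434 to 472 CPM, made up most of that sum at day 0, where Afp, Ttr and Apoa1 had 4, 5 and 3 counts in all. Apob made up most of it in each day 10 library. Single markers differed, with Afp highest in library 4 (339 CPM, against 319 in library 2). Of the epithelial markers, Epcam (22.8, 38.0, 36.9 and 26.6 CPM) and Cdh1 (58.1, 129, 122.1 and 70.3 CPM) had the order of Lama1 at day 10, and both fell between the days. The 7 epithelial markers, of which 6 were tested, 4 rose and 2 fell, summed to 654 to 724 CPM at day 0 and to 323, 445, 499 and 325 CPM at day 10, with Krt5 at 0 counts at day 0. Neural markers were also highest in library 2, at 135 CPM against 45.3 to 52.6 in the other day 10 libraries. Without library 2 the log2 change was -1.29 for Lama1, -0.99 for Lamc1, -0.65 for Lamb1 and -1.09 for Itga6, each still called. The part of these cells in the laminin values was not tested.

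**Figure D4:**
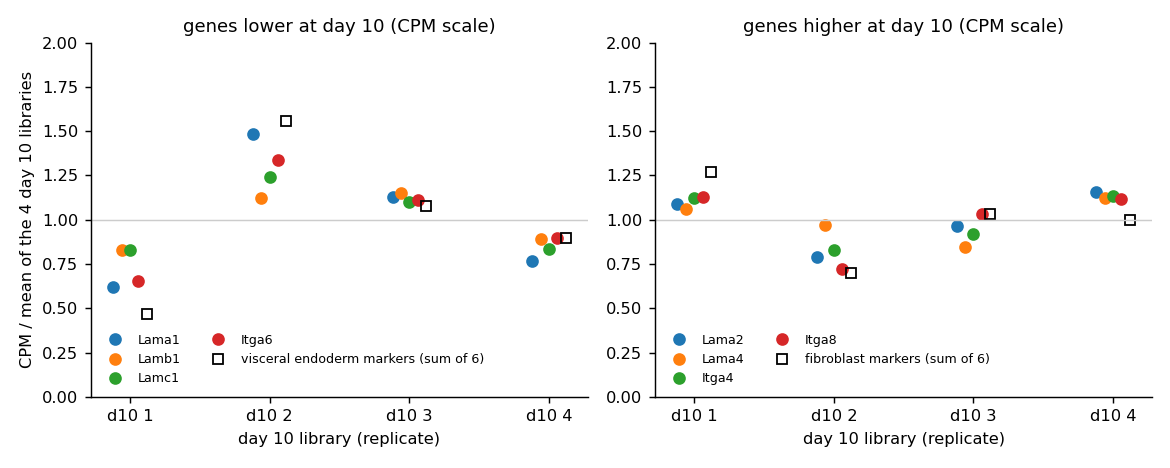
CPM in each day 10 library divided by the mean of the 4 day 10 libraries, for 4 genes lower at day 10 beside the visceral endoderm marker sum (left) and 4 genes higher at day 10 beside the fibroblast marker sum (right). Library 2 is high for the genes and markers on the left and is the lowest for Lama2, Itga4, Itga8 and the fibroblast sum on the right. Lama4, the other gene on the right, is lowest in library 3.

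The other laminin α chains rose, apart from Lama3. Lama2, the α chain of muscle and Schwann cell basement membranes, was at 1.38, 0.348, 0.337 and 0.0655 CPM at day 0 and at 53.1, 38.5, 47.1 and 56.4 CPM at day 10, a 99.4-fold rise (log2 6.64 ± 0.37, adjusted p = 5.03e-08; 5.91 without the length trend). Day 0 library 1 held 15 of the 25 day 0 counts of Lama2, and without that library the rise was 194-fold (log2 7.60). Lama4, the α chain of vessel walls and mesenchyme, was at 8.66, 7.38, 3.37 and 7.53 CPM at day 0 and at 51.7, 47.4, 41.3 and 54.8 CPM at day 10 (log2 change 2.85 ± 0.21, adjusted p = 2.21e-07; 2.08 without the length trend). Neither gene overlapped between the days. Fibroblast markers, all 6 of which rose, summed to 119.1 to 134.8 CPM at day 0 and to 9339, 5146, 7588 and 7319 CPM at day 10, and endothelial markers, all 6 of which rose, to 42.5 to 46.9 and 426 to 522 CPM. No fibroblast or endothelial marker was at 0 counts at day 0, and Pdgfra alone made up 112 to 129 CPM of the fibroblast sum on that day. The part of these cells in the Lama2 and Lama4 results was not tested.

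Lama5, the widely expressed α chain of mature basement membranes and of stem cell niches, was at 88.7 to 111 CPM at day 0 and at 154 to 179 CPM at day 10 (log2 change 0.73 ± 0.08, adjusted p = 7.64e-07). Without the length trend Lama5 was lower instead, at -0.39 (adjusted p = 7.33e-05), whereas the TPM fit gave 1.18, which is 0.78 above the TPM median of all genes. Lama3, the epithelial α chain, was low throughout, at 6.62 to 7.83 CPM at day 0 and 3.07 to 5.81 CPM at day 10, and fell by 0.75 ± 0.21 on the log2 scale (adjusted p = 0.00425), and by 1.72 without the length trend.

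Beside Lamb1 and Lamc1, the chains Lamb2, Lamb3 and Lamc3 rose. Lamb2, the β chain of neuromuscular, glomerular and vascular basement membranes, was at 27.9, 27.6, 26.3 and 24.7 CPM at day 0 and at 111, 96.4, 96.8 and 99.1 CPM at day 10 (log2 change 1.92 ± 0.08, adjusted p = 2.35e-11; 1.33 without the length trend). The libraries of each day lay close together and far from those of the other day. Lamb3, an epithelial β chain, rose by 2.87 ± 0.37 on the log2 scale and stayed at or under 2.79 TPM. Lamc3 had 0 counts in all day 0 libraries and was at 5.59, 3.02, 4.31 and 4.26 CPM at day 10 (adjusted p = 1.88e-07). With the day 0 group set to 3 counts, Lamc3 was at least 74.0-fold higher.

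The make-up of each family was described by the share of every chain in the summed TPM of its family, without a test, since shares within a family depend on each other. The summed TPM of integrin α chains went from 196 ± 11.9 to 516 ± 9.50, and that of β chains from 249 ± 21.2 to 957 ± 28.6 (SD, n = 4 each). On TPM the laminin sums overlapped between the days. That of α chains went from 370 ± 46.0 to 310 ± 93.3 TPM, of β chains from 398 ± 88.0 to 376 ± 79.3 and of γ chains from 388 ± 41.0 to 296 ± 65.8 (SD, n = 4 each). The overlap depends on the scale, since on CPM the leading chains Lama1, Lamb1 and Lamc1 each lay lower in every day 10 library than in any day 0 library. The libraries of the days did not overlap in either receptor sum.

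Itga6 was the leading integrin α chain at day 0, with 44.5, 46.2, 38.3 and 36.1% of the α chain TPM, and had 7.21, 16.0, 12.4 and 9.49% at day 10. Itgav led at day 10, with 25.9% ± 0.99 against 17.4% ± 1.44 at day 0 (SD, n = 4 each). Behind Itgav came Itga8 (16.1%), Itga3 (14.1%), Itga6 (11.3%), Itga5 (10.8%), Itga9 (9.05%) and Itga4 (5.10%) in the mean of day 10. From Itga8 down to Itga9 each range overlapped with its neighbours in that order, while Itgav and Itga4 stood apart. At day 0 the order was Itga6 (41.3%), Itga3 (18%), Itgav (17.4%), Itga5 (14.8%) and Itga9 (4.76%), where the middle 3 overlapped with a neighbour. With protein-coding transcripts alone, Itga6 went from 27.5 to 7.92%, and its day 0 lead held in libraries 1 and 2 only. In library 3 Itga3 (35.5 TPM) was above Itga6 (30.9), and in library 4 Itga3 (36.8), Itgav (29.7) and Itga5 (28.8) were above it (28.4). On that measure Itga8 went from 0.189 to 7.60%, and in the mean of day 10 it stood behind Itgav (30.3%), Itga3 (21.2%), Itga5 (14.6%) and Itga6. Itga8 and Itga6 crossed, with Itga8 above in day 10 libraries 1 (27.6 against 17.5 TPM) and 4 (30.0 against 23.9). In libraries 2 and 3 Itga6 was above (35.4 against 20.1 and 29.6 against 24.5 TPM).

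The β chain family kept its lead gene. Itgb1 held 89.8% ± 1.79 of the β chain TPM at day 0 and 89.0% ± 0.76 at day 10 (SD, n = 4 each), and the days overlapped. Itgb5 was next on both days, with 5.63 and 6.01%. Behind it Itgb7 (2.99%) at day 0 gave way to Itgb3 (3.04%) at day 10, with Itgb7 then at 0.00731% and Itgb3 at 0.214% at day 0. These shares depend on the length scaling, since on CPM the Itgb1 share went from 92.0 to 83.9%, with Itgb3 at 6.48% and Itgb5 at 6.29% at day 10.

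Lama1 held 94.5, 94.2, 95.5 and 95.1% of the laminin α TPM at day 0 and 63.4, 82.8, 76.6 and 70.1% at day 10. It remained the leading α chain in every library, and the remainder at day 10 was divided among Lama5 (12.0% ± 3.65), Lama2 (7.22% ± 2.81) and Lama4 (7.20% ± 2.55; SD, n = 4 each), whose ranges of share overlapped. In TPM, however, Lama5 (27.85 to 42.8) lay above both Lama2 (18.2 to 24.3) and Lama4 (17.45 to 22.4) in every day 10 library. Coding transcripts alone gave Lama5 11.2%, Lama4 5.91% and Lama2 3.72% at day 10, and in coding TPM Lama5 (27.7 to 31.8) lay above Lama2 (7.5 to 11.8) in every library. Lamb1 went from 96.9% ± 0.63 to 85.0% ± 4.01 of the β chain TPM, and Lamb2 from 3.01% ± 0.63 to 14.5% ± 3.79. Lamc1 held 97.8% and 96.1% of the γ chain TPM.

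**Figure D5:**
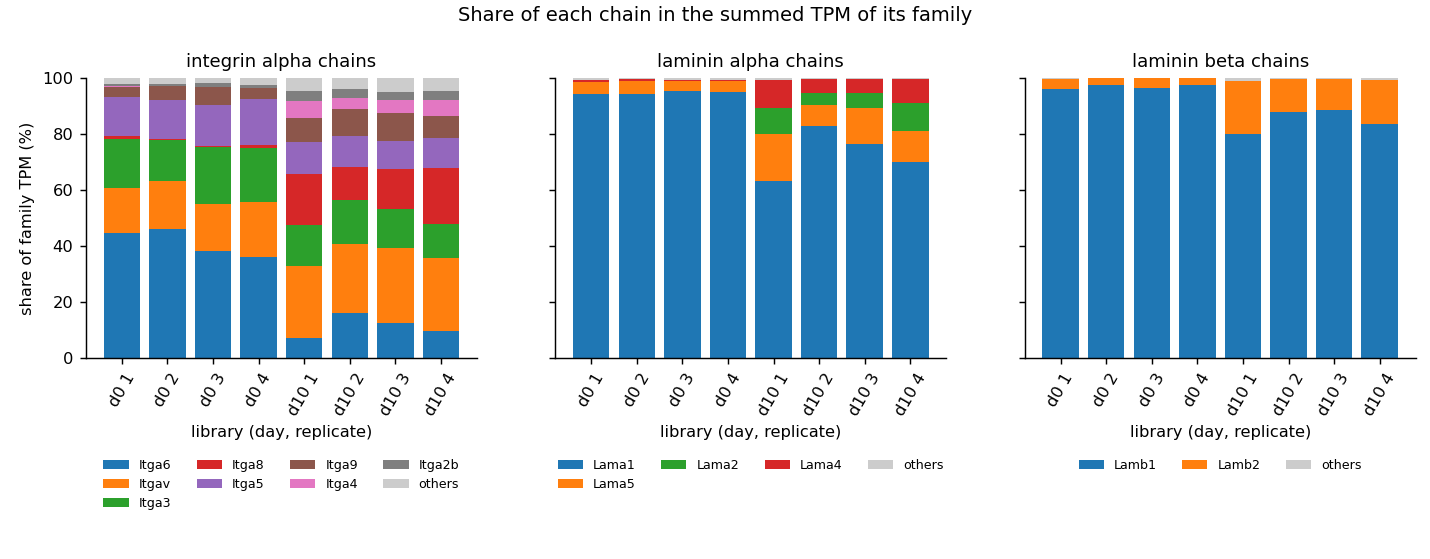
Share of each chain in the summed TPM of integrin α, laminin α and laminin β chains in the 8 libraries (d0, day 0; d10, day 10), in percent; chains under 3% on both days are joined as others. Itga6 shrinks from the largest integrin α segment to 7.21 to 16.0%, while Lama1 and Lamb1 remain the largest laminin segments at day 10.

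The genes that work with these receptors and ligands were taken from lists of known partners. Of 20 basement membrane partners, 19 were tested and 18 rose, none fell, with a median log2 change of 1.73. Smoc2, a matricellular protein, rose from 2 to 4171 counts over the libraries of a day. Col4a5, a chain of basement membrane collagen, rose by 8.59 ± 0.19 and Fras1, a protein that anchors epithelium to mesenchyme, by 5.52 ± 0.11 on the log2 scale. Without the length trend these changes were 7.79 and 4.34. Of 27 tested integrin ligands other than laminins, 23 rose and 4 fell, with a median of 4.74. Thbs1, a thrombospondin, rose by 4.92 ± 0.12, Edil3, an RGD ligand of endothelium, by 6.31 ± 0.20 and Ltbp1, which tethers latent TGF-β to the matrix, by 3.42 ± 0.10 on the log2 scale. Without the length trend Thbs1 was at 4.06, Edil3 at 5.89 and Ltbp1 at 2.62. Spp1, the RGD protein osteopontin, fell by 3.69 ± 0.15, from 65.8 to 70.6 CPM at day 0 to 3.58 to 6.65 CPM at day 10. Against these medians stood 0.06 over all genes tested. Of the basement membrane partners tested 94.7% were called, and of the ligands 100%. Over all genes tested 82.1% were called, 42.7% higher and 39.4% lower.

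Intracellular partners moved less. Of 38 integrin adaptors and activators, 22 rose, 4 fell and 12 were not called, with a median log2 change of 0.66. The 68.4% called lay under the 82.1% over all genes tested. On log2(TPM + 1), 31 of the 38 were called higher, beside 7864 of all 15097 genes tested. On counts these numbers were 22 and 6449. Parva, which links integrin-bound kinase to actin, rose by 3.16 ± 0.09, Kank1, at the rim of adhesions, by 1.95 ± 0.08 and Flna, the actin cross-linker that binds β tails, by 1.58 ± 0.08, whereas Actn4 fell by 1.0 ± 0.06 on the log2 scale. With the length trend removed Parva was at 2.65, Kank1 at 1.41, Flna at only 0.63 and Actn4 at -1.13. Of 18 tested laminin receptors that are not integrins, 12 rose and 5 fell, with a median of 0.68. The share called was 94.4%, beside the 82.1% over all genes tested. The syndecans Sdc2 and Sdc3 rose by 3.40 ± 0.12 and 4.49 ± 0.16 (2.96 and 3.87 without the length trend). Rpsa, a ribosomal protein also described as a laminin receptor, fell by 1.25 ± 0.08 on the log2 scale, and by 0.56 without the length trend.

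The promoters of the members differed widely in CpG content, counted as the letters CG, which read the same on both strands. RefSeq windows of 300 bases (250 before the start and 50 after, GRCm38.p6) were found for 23 of the 37 genes. Where a gene had several, the most upstream was used. The windows used held 1 to 27 CpG, with a median of 12, beside a median of 7 over 32817 windows, of which 94.6% held at least 1. The 10 members at 5 TPM or more at day 0 had a median of 19 (4 to 27), and the 13 under 5 TPM had a median of 10 (1 to 23). The ranges thus overlapped widely: Itga8, under 5 TPM, held 23 CpG, and Lamb2, above 5 TPM, held 4. This is a description of the matched genes only, and methylation was not measured. The lowest and the highest count belonged to a chain nearly silent at day 0, Lama2, and to the most abundant integrin chain, Itgb1. The 250 bases before their starts are shown to make that contrast visible, with each CpG in capitals. They lie at chr10:27616943-27617192 (minus strand) and chr8:128685404-128685653 (plus strand). The RefSeq start of Lama2 is also the M21 start of Lama2-202, which is non-coding. The longest coding transcript, Lama2-201, starts 99 bases further downstream. Lama2-206, also non-coding, starts 2816 bases upstream, so the Lama2 window lies inside the M21 gene record. The windows of Itga9 (chr9:118711442-118711741) and Lamb3 (chr1:193301744-193302043) lie further inside their records, which begin at 118606690 and 193207699 on the plus strand. The RefSeq start of Itgb1 is the start of the coding Itgb1-201.
Lama2 promoter: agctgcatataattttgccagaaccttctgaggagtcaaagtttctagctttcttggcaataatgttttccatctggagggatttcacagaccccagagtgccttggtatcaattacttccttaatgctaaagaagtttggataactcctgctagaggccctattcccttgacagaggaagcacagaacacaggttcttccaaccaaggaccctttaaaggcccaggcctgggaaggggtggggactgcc
Itgb1 promoter: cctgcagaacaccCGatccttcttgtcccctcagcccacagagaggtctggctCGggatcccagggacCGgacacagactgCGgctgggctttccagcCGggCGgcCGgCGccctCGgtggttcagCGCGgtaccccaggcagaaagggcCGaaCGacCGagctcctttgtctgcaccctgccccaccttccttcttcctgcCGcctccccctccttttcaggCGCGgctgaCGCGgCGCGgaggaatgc
The Lama2 stretch held 0 CpG and the Itgb1 stretch 21. At day 0, Lama2 was at 0.180 TPM and Itgb1 at 224 TPM, and at day 10 at 20.5 and 852 TPM.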

How the data were processed

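The authors deposited 1 abundance table per library with estimated counts and TPM for 126126 transcripts, per the file headers. The submitters' processing notes name kallisto, with its version given only as 1, and DESeq2; the annotation and genome build behind the tables are not stated in any label or header. The deposited estimated counts carry no scaling, and the deposited TPM values are divided by effective length and sum to the same total in each library.

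Transcripts were joined to GENCODE M21 (93.6% matched; all 202 transcripts of the members had equal length in both). The unmatched held 1.15 to 1.23% of a library's counts and were left out. Counts and TPM were summed per gene and counts rounded. The gene test was the robust quasi-likelihood test of edgeR 4.0.16 under R 4.3.3 (filterByExpr, TMM, no block), with Benjamini-Hochberg adjustment over 15097 genes and a threshold of 0.05. The test was checked on simulated data. Alternatives were DESeq2 1.42.0, limma 3.58.1 on log2(TPM + 1) and log2(TPM + 0.1), upper quartile scaling, no low-count filter, an average transcript length offset, a replicate block, leaving out each library and, added after the data were seen, removal of the transcript length trend (loess, span 0.3).

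Gene TPM sums include non-coding transcripts, which hold much of the TPM of some members (Itga8, Itga2b, Itgb8, Lama2, Lamb1, Itga6), so shares were also taken from coding transcripts. Where a read matches more than 1 transcript, kallisto divides it by estimation. Reads carry no molecular identifiers, so floors cover counting error only. Members and lists were chosen with earlier results of these data known. Single-gene values of 1 member and 1 partner gene are not reported here, though counts, medians and family sums include them. The other members are named; of each partner list, up to 3 called genes with the smallest p in the commoner direction and 1 in the other were named. Replicate numbers 1 to 4 occur on both days, and same-numbered libraries did not deviate together, so the numbers were not used as pairs. The labels hold no batch or date, and a batch aligned with day could not be separated from it.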

Additional observations from a re-analysis of the deposited data

Results flagged for a closer look

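Among 103 groups of 4 libraries examined, 2 had a library flagged as apart from the others of its day. Chance flags about 5% of groups. The share of Itga6-202 in the coding TPM of Itga6 was 0.00133% in day 10 library 1. It was 0 in the other 3 day 10 libraries, beside a mean of 79.6% at day 0. The 0.00133% stands for 0.006256 estimated counts, less than 1 read. Beside 3 values of 0 any value above 0 is flagged, so the 5% does not apply to that group. The share of Itgam-201 in the coding TPM of Itgam was 100% in day 0 library 3 and 0 to 0.0107% in the other 3 day 0 libraries. Itgam was low on that day, with 224 counts over the 4 libraries.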

How the results depend on the processing

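Of 528 values of the log2 change of 33 tested genes under 16 alternatives, 522 kept direction and side of the threshold, 3 lost the call and 3 changed sign. Itgam lost its call with the length trend removed, and Lamb1 on both TPM scales. With the length trend removed Itga5 was at -0.21 and Lama5 at -0.39; without day 10 library 4 Itgb4 was at 0.12 (-0.55 to 0.12 over all single libraries left out). Neither value of Itgb4 was called. The members called higher ranged from 23 to 27 and those called lower from 5 to 8. Basement membrane partners called lower were 1 with the length trend removed (0 on counts). Adaptors called lower were 2 on both TPM scales and 9 with the length trend removed (4 on counts), with 31 called higher on both TPM scales (22 on counts), and laminin receptors outside integrins called lower were 3 on both TPM scales (5 on counts). Over all 15097 genes tested, 7864 and 7846 were called higher on the TPM scales with pseudocounts 1 and 0.1, against 6449 on counts. Beside the length trend, which the removal itself takes out, the cause was not tested.

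Differences in transcript share, day 10 minus day 0 in percentage points, changed sign for Itga9-201 (-0.325 over all transcripts) and, without day 0 library 4, Itgb5-202 (-0.489), Lamb1-201 (0.155) and Lamb1-205 (-0.286), and none of these was past the threshold. Over all single libraries left out these 3 ranged from -0.489 to 16.5, from -6.77 to 0.155 and from -0.286 to 6.68. With the replicate block 12298 genes were called, 26 members higher and 6 lower, while correlations of same-numbered libraries were -0.00143 to 0.0649. Low counts limit Itga11, Itgb2, Itgb6, Lamb3, Itgax, Itgae and Itgad, and the smallest p of 4 against 4 libraries, 0.0286, limits the transcript shares.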
